A study of Homo sapiens with 6 samples.

Results

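The genes of cell division and chromosome segregation were followed in SNU668, an established line grown from a human signet-ring carcinoma of the stomach. They are the 86 protein-coding genes, of 2128 genes in the deposited tables, that carry at least 1 of 5 Gene Ontology processes. Of these genes, 56 are annotated to cell division, 17 to the mitotic cell cycle, 16 to the G1/S transition of the mitotic cell cycle, 12 to chromosome segregation and 11 to DNA replication, and 21 carry more than 1 of these. The annotation chose them, but from tables that held mostly genes separating the groups, and with earlier results of these data known. RNA-seq was run on 3 libraries titled shGPER, with the genotype given as GPER knockdown, and on 3 libraries titled shControl, with the genotype given as WT. The labels name no treatment, time or passage. They do not say whether the control cells carried a hairpin, whether 1 or several hairpins were used, or whether replicate libraries were grown as separate cultures. The p-values therefore cover the spread between libraries, which may be technical.

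A dividing cell first licenses and copies its DNA in S phase, under the control of cyclins and their kinases. It then condenses its chromosomes, holds sister chromatids together with cohesin and attaches them to the spindle through kinetochores. The spindle checkpoint delays anaphase until attachment is complete, and the anaphase-promoting complex then marks securin and cyclins for destruction so that sisters part and cytokinesis can follow. Many of these genes are transcribed in waves, from E2F sites late in G1 and from CHR elements in G2 and M phase, and their mRNA is generally more abundant in cycling than in resting cell populations. In bulk RNA, fewer cells in a phase and less RNA per cell cannot be told apart.

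The unit is TPM, a length-corrected share of all transcripts in a library that sums to the same total in each. TPM keep no read count, so depth is unknown and no counting error is given. The listed genes summed to between 46584 and 49148 TPM in shGPER and to between 61181 and 64236 TPM in shControl libraries; genes making up most of each library were not analysed here. The groups did not overlap for 95.3% of all listed genes, so the tables already held mostly genes that separate the groups. GPER1, the targeted gene, stood at 1.83, 2.41 and 2.47 TPM in the shGPER libraries, against 11.04, 11.00 and 10.41 TPM in the shControl libraries, which goes with the labels. Of 16 gastric epithelial markers CDH1, TFF1 and CDX2 were listed, with a summed level of 2.07 to 3.84 TPM in shGPER and 5.38 to 7.14 TPM in shControl libraries. TFF1 carried most of that sum except in shGPER library 3. It was at 2.91, 2.24 and 0.26 TPM in shGPER libraries 1, 2 and 3. CDH1 was at 0.42 TPM or less in shGPER and 0.44 TPM or more in shControl libraries. CDX2 went the other way, at 0.82 to 1.39 TPM in shGPER and 0.30 to 0.47 TPM in shControl libraries. The other 13, keratins and mucins among them, and the 3 leukocyte markers were not analysed here. The 3 fibroblast markers summed to 31.2 to 32.6 TPM in shGPER and 6.74 to 9.58 TPM in shControl libraries, but of these only COL1A1 was higher, at 28.77 to 30.12 TPM in shGPER and 2.06 to 3.79 TPM in shControl libraries. DCN and LUM were lower in every shGPER library (1.09 to 1.57 and 1.06 to 1.31 TPM) than in any shControl library (2.33 to 3.49 and 2.30 to 2.92 TPM). Of 3 endothelial markers CDH5 alone was listed, at 6.19 to 7.99 TPM in shGPER and 1.43 to 1.96 TPM in shControl libraries. Their part in the results below was not tested.

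Most of the listed cell division genes were lower after GPER knockdown. Of the 83 that reached 1 TPM in at least 3 libraries, 72 fell, 10 rose and 1, BARD1, passed in neither direction (limma on log2(TPM + 1), adjusted p under 0.05 over all 1651 tested genes). That is 86.7% lower and 12.0% higher among these genes, beside 50.6% lower and 47.8% higher over the whole table. In all, 98.4% of the tested genes of the table passed in one direction or the other, so the number that passed says nothing of these genes, and the direction carries the description. A 2-fold fall, a log2 fold change of -1 or less, was seen for 39 genes (47.0%, against 24.2% of the table), and a 2-fold rise for 7 (8.43%, against 32.0% of the table). The 72 and 39 include SYCE2, and the 10 and 7 include TUBB4A. Each passed the filter only through 1 group, so its direction was fixed beforehand. The number 2-fold lower depended on the scaling, with 25 after median centring, 28 after quantile normalization and 10 with the GC trend removed. The median log2 fold change was -0.96, with -0.49 over all tested genes and 0.35 over the tested genes outside this set.

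The drop was visible in the summed level as well. Together the 86 genes made up 1745, 1857 and 1942 TPM in the shGPER libraries, against 3271, 3280 and 3280 TPM in the shControl libraries. Their median level was 7.81 to 8.36 TPM in shGPER and 16.2 to 16.8 TPM in shControl libraries, while the median over all listed genes was 3.93 to 4.38 TPM in shGPER and 3.90 to 3.95 TPM in shControl libraries. Each of the 72 genes that fell was left at 19.4 to 59.7% of its control level. The groups did not overlap for 81 of the 83 tested genes (97.6%, against 97.4% of all tested genes), the exceptions being BARD1 and PARD6G.

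**Figure D1:**
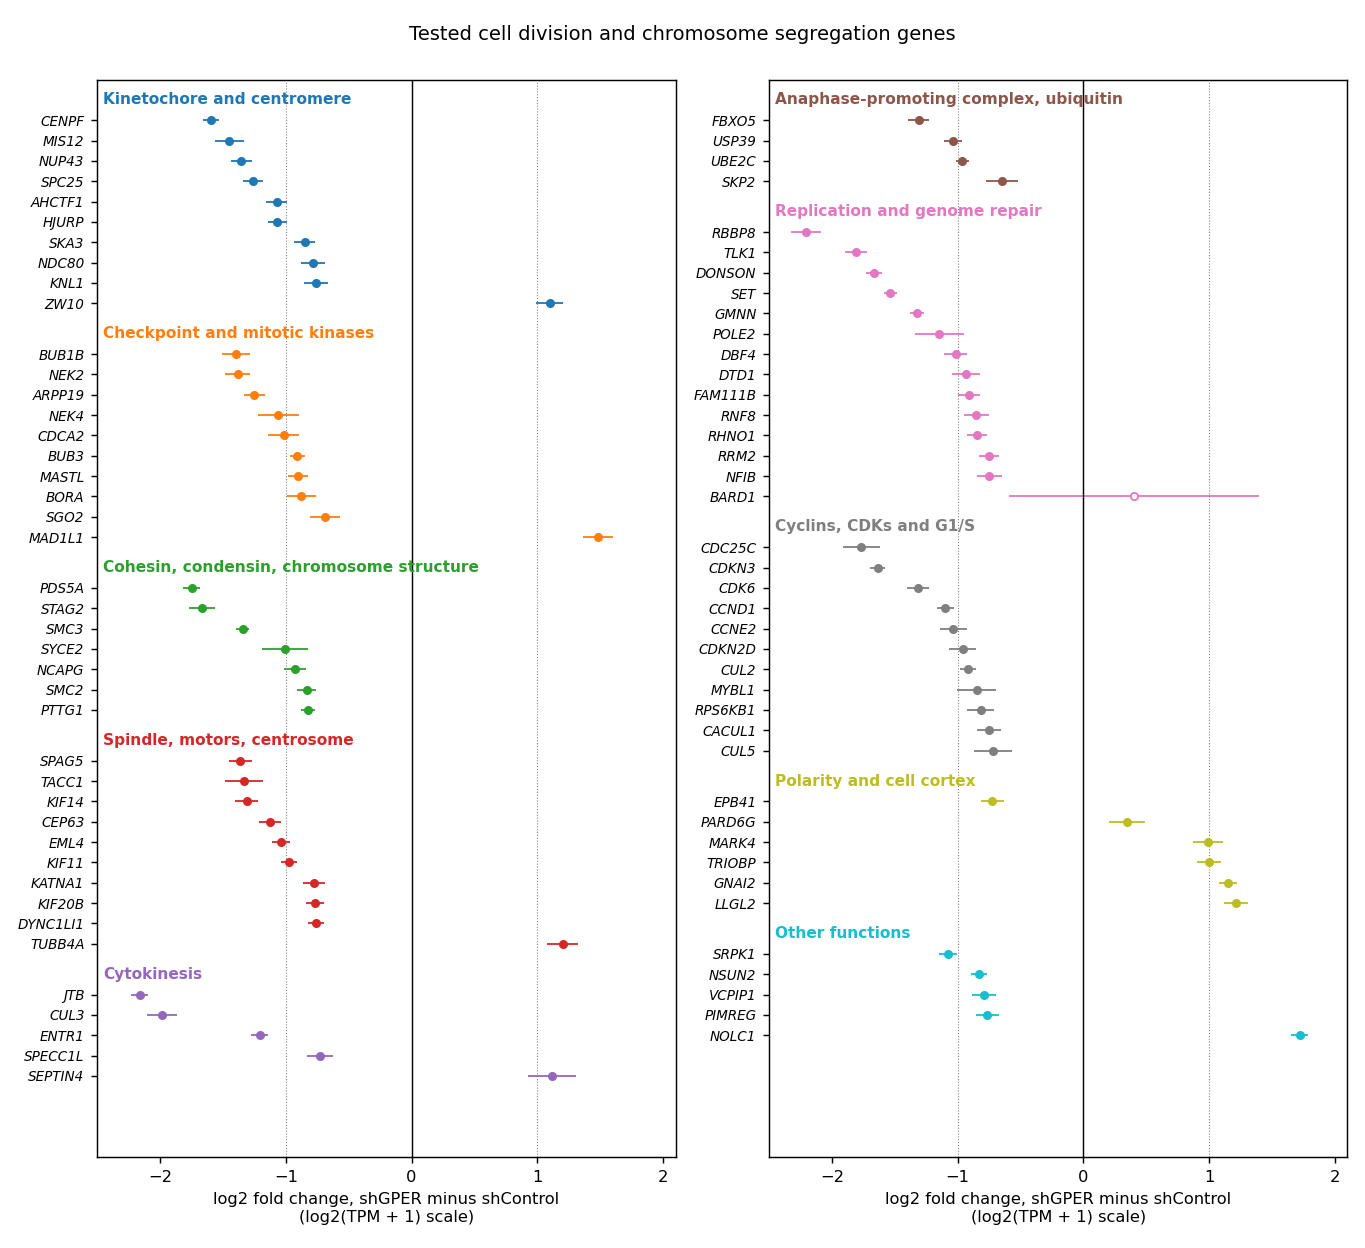
Log2 fold change (shGPER minus shControl, log2(TPM + 1) scale) of 82 of the 83 tested genes, grouped by process; bars are standard errors of the limma fit, dotted lines mark a 2-fold change, and the open circle is the gene that did not pass. Falls prevail in every group but 1, the polarity and cortex genes, where 5 of 6 lie to the right of 0.

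Kinetochore and centromere genes fell with 1 exception. Of 11 tested genes 10 fell, 7 of them by at least 2-fold, and the median log2 fold change was -1.07. CENPF, a large coiled-coil protein of the outer kinetochore that accumulates in G2 (ENSG00000117724; chromosome 1, 214603195 to 214664588, plus strand, GRCh38), stood at 15.09, 16.41 and 15.61 TPM in the shGPER libraries, against 48.15, 50.59 and 49.74 TPM in the shControl libraries. The lowest control library was more than 2 times the highest knockdown library, and the log2 fold change was -1.60, SE 0.062, adjusted p = 2.41e-07. MIS12, which anchors the microtubule-binding layer to the centromere, had 3.22, 3.64 and 3.27 TPM in shGPER and 10.02, 10.06 and 12.93 TPM in shControl libraries, a log2 fold change of -1.45, SE 0.12, adjusted p = 5.96e-06. Its shControl libraries differed among themselves by more than its shGPER libraries did, but the groups stayed apart.

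The microtubule-binding core of the kinetochore was lower throughout its listed members. NDC80 and SPC25 encode subunits of the NDC80 complex, which grips the microtubule end, and KNL1 is the scaffold that recruits checkpoint proteins beside it. NDC80 was at 12.72, 10.56 and 10.96 TPM in the shGPER libraries and at 20.24, 18.50 and 22.37 TPM in the shControl libraries (log2 fold change -0.78, SE 0.099, adjusted p = 7.67e-05). SPC25 was at 15.57, 12.86 and 14.98 TPM in shGPER and at 36.55, 35.95 and 35.44 TPM in shControl libraries (log2 fold change -1.26, SE 0.081, adjusted p = 1.66e-06). KNL1, at 3.66 ± 0.261 TPM in shGPER and 6.88 ± 0.356 TPM in shControl cells (SD, n = 3 each), and SKA3, a subunit of the SKA complex that helps kinetochores follow shrinking microtubules, at 6.27 ± 0.374 TPM in shGPER and 12.1 ± 0.527 TPM in shControl cells, had log2 fold changes of -0.76 and -0.85. Of these 4 genes SPC25 alone changed by more than 2-fold.

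A chaperone of the centromere histone and nucleoporins found at kinetochores fell as well. HJURP, the chaperone that deposits CENP-A, was at 21.7 ± 1.73 TPM in shGPER and 46.6 ± 2.07 TPM in shControl cells (SD, n = 3 each), and its log2 fold change was -1.07. NUP43 and AHCTF1, the nucleoporins Nup43 and ELYS that sit at kinetochores in mitosis, had log2 fold changes of -1.35 and -1.07. AHCTF1 shares 52.5% of its 31-base transcript words with other genes, mostly its pseudogene AHCTF1P1, so its value is uncertain.

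ZW10 went the other way. It encodes a subunit of the RZZ complex, which brings dynein and the MAD1 and MAD2 checkpoint proteins to kinetochores and also acts in vesicle tethering at the endoplasmic reticulum (chromosome 11, 113733187 to 113773811, minus strand, GRCh38). ZW10 stood at 4.75, 4.94 and 5.23 TPM in the shGPER libraries, against 2.04, 1.58 and 1.76 TPM in the shControl libraries. Every shGPER library was more than 2 times any shControl library, at low levels in both groups, and the log2 fold change was 1.10, SE 0.11, adjusted p = 1.67e-05.

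The spindle checkpoint and the mitotic kinases showed the same split. Of 10 tested genes 9 fell, 5 by at least 2-fold, and MAD1L1 rose. BUB1B, the checkpoint protein BubR1 that inhibits the anaphase-promoting complex, had 12.77, 14.48 and 10.93 TPM in shGPER and 38.79, 33.76 and 32.49 TPM in shControl libraries (log2 fold change -1.40, SE 0.11, adjusted p = 5.04e-06). BUB3, its WD-repeat partner, was the most abundant gene of the whole set in shControl cells, at 176.10, 197.07 and 191.92 TPM in shGPER and 365.13, 354.29 and 342.31 TPM in shControl libraries (log2 fold change -0.91, SE 0.059, adjusted p = 1.74e-06). SGO2, shugoshin 2, which shields centromeric cohesin, had the smallest fall of this group, a log2 fold change of -0.69. MAD1L1, which encodes MAD1, the protein that holds MAD2 at unattached kinetochores (chromosome 7, 1815793 to 2233243, minus strand, GRCh38), was at 36.32, 44.12 and 50.02 TPM in the shGPER libraries and at 13.55, 14.77 and 16.20 TPM in the shControl libraries. The knockdown libraries lay wholly above the controls, with a log2 fold change of 1.48, SE 0.12, adjusted p = 5.45e-06.

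Kinases and phosphatase regulators of mitotic entry were lower. NEK2, a kinase that separates centrosomes, had 8.63, 7.02 and 8.29 TPM in shGPER and 21.34, 21.53 and 24.29 TPM in shControl libraries (log2 fold change -1.38, SE 0.097, adjusted p = 2.51e-06); 17.5% of its words are shared. MASTL, the Greatwall kinase, and ARPP19, the protein through which Greatwall restrains the phosphatase PP2A-B55, had log2 fold changes of -0.90 and -1.25. ARPP19 was at 14.6 ± 1.37 TPM in shGPER and 36.0 ± 1.98 TPM in shControl cells (SD, n = 3 each). BORA, an activator of Aurora A towards PLK1, CDCA2, the phosphatase targeting subunit Repo-Man, and NEK4, a kinase of the same family as NEK2, had log2 fold changes of -0.88, -1.02 and -1.06. The groups did not overlap for any of these genes, nor for 97.4% of all tested genes of the table.

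All 7 tested genes of chromosome structure fell, 4 of them by at least 2-fold. Both counts include SYCE2, which passed the filter only through the controls. The cohesin genes had the largest changes of the group. PDS5A, which regulates cohesin on DNA, was at 8.37, 8.65 and 7.92 TPM in shGPER and 29.68, 30.22 and 30.96 TPM in shControl libraries (log2 fold change -1.75, SE 0.068, adjusted p = 2.41e-07). STAG2, a cohesin subunit often mutated in cancer, was at 3.96, 4.32 and 4.41 TPM in shGPER and 14.40, 14.90 and 17.68 TPM in shControl libraries (log2 fold change -1.67, SE 0.10, adjusted p = 1.28e-06), and SMC3, a core ATPase of the cohesin ring, at 22.87, 23.14 and 23.07 TPM in shGPER and 58.90, 59.87 and 61.00 TPM in shControl libraries (log2 fold change -1.34, SE 0.053, adjusted p = 2.46e-07). PDS5A and STAG2 kept 27.4 and 27.0% of their control level and SMC3 kept 38.4%.

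The condensin genes and securin had smaller log2 fold changes. NCAPG and SMC2, subunits of the condensin complexes that compact mitotic chromosomes, were left at 50.1 and 53.5% of control, with log2 fold changes of -0.93 and -0.83. PTTG1, securin, the inhibitor of separase, was at 127.11, 117.55 and 116.46 TPM in shGPER and 215.96, 217.66 and 207.69 TPM in shControl libraries (log2 fold change -0.82, SE 0.054, adjusted p = 1.91e-06). SYCE2, a part of the meiotic synaptonemal complex, had 0.87, 0.11 and 0.48 TPM in shGPER and 1.95, 1.85 and 1.96 TPM in shControl libraries. It was under 1 TPM in all shGPER libraries and passed the filter only through the controls, which left it no other direction.

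Spindle and motor genes fell in 9 of 10 tested cases, 5 by at least 2-fold. SPAG5, astrin, a spindle protein that stabilises kinetochore attachments, was at 20.14, 25.16 and 23.56 TPM in shGPER and 62.59, 62.61 and 55.82 TPM in shControl libraries (log2 fold change -1.36, SE 0.092, adjusted p = 2.06e-06). KIF11, the kinesin Eg5 that pushes spindle poles apart, was at 15.68, 16.36 and 16.61 TPM in shGPER and 32.02, 32.49 and 34.09 TPM in shControl libraries (log2 fold change -0.98, SE 0.063, adjusted p = 1.71e-06). KIF14, a kinesin needed for cytokinesis, had 2.84, 3.01 and 2.80 TPM in shGPER and 8.81, 8.19 and 8.92 TPM in shControl libraries (log2 fold change -1.31, SE 0.091, adjusted p = 2.46e-06). The other 6 genes that fell were TACC1, a centrosomal coiled-coil protein (log2 fold change -1.33), CEP63, a centriole duplication protein (-1.13), EML4, a microtubule-binding protein known for its fusion with ALK (-1.04), KATNA1, the microtubule-severing katanin (-0.78), the kinesin KIF20B (-0.77) and DYNC1LI1, a dynein light intermediate chain (-0.76).

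TUBB4A, a beta-tubulin known mainly from brain, was the spindle and motor gene that rose, with 1.92, 2.45 and 1.96 TPM in shGPER and 0.44, 0.41 and 0.21 TPM in shControl libraries. All of its shControl values were under 1 TPM, so it could pass the filter only by rising, and 12.2% of its transcript words are shared with other genes. The alpha-tubulin TUBA8, at 0.63, 0.60 and 0.60 TPM in shGPER and 0.20, 0.12 and 0.25 TPM in shControl libraries, and the HAUS3-POLN readthrough gene ENSG00000290263, with means of 0.0533 TPM in shGPER and 0.157 TPM in shControl cells, were too low to be tested. The third gene left untested was BCAT1, an aminotransferase of branched-chain amino acids, at 0.28, 0.52 and 0.37 TPM in shGPER and 0.53, 0.80 and 0.64 TPM in shControl libraries.

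**Figure D2:**
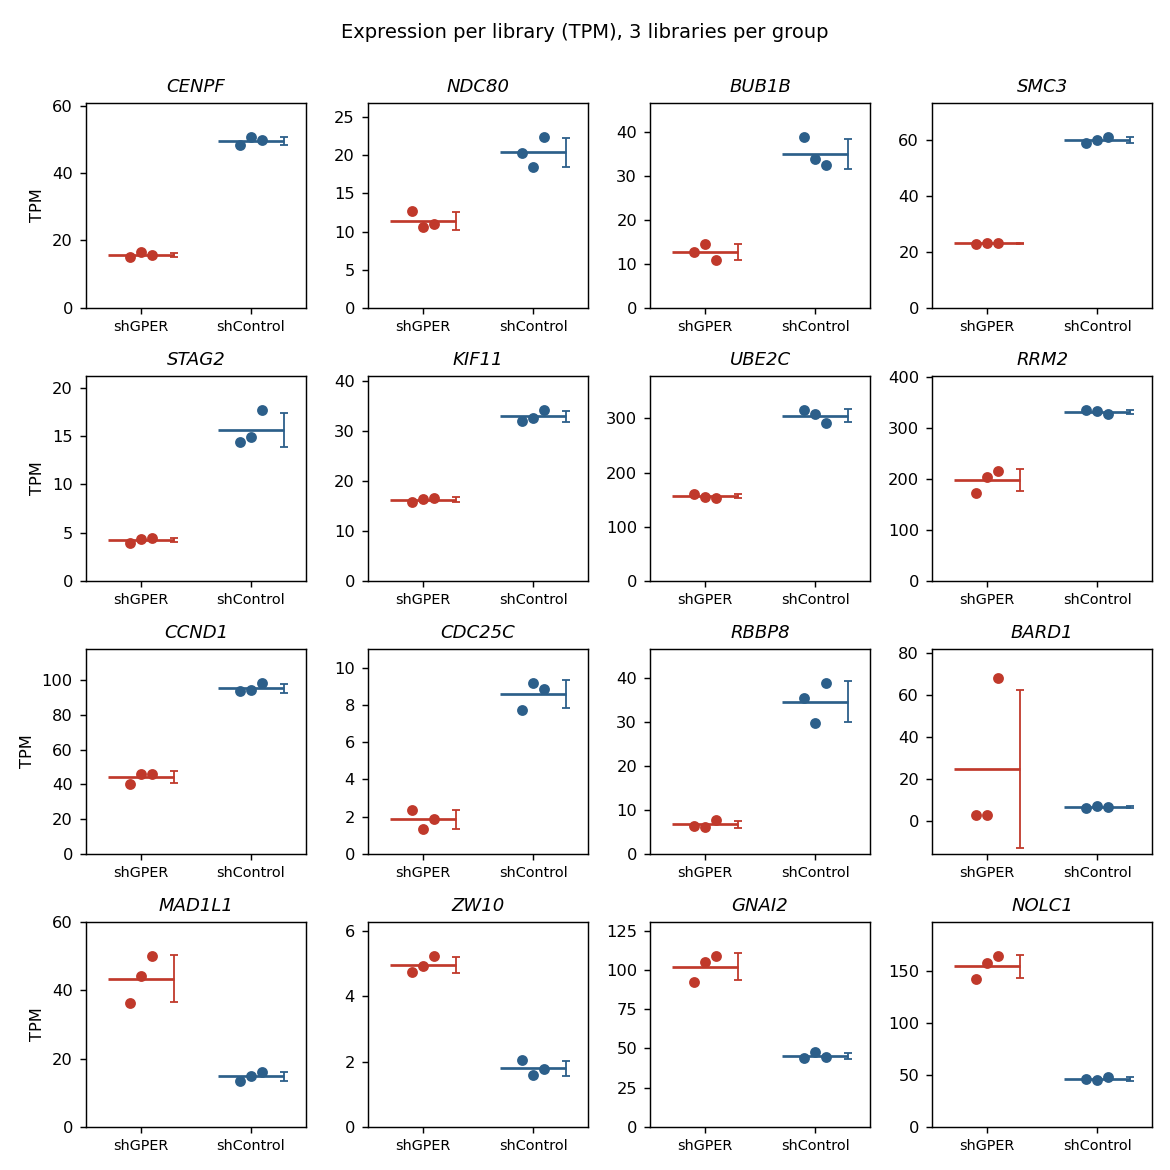
TPM of 16 genes in each library (points), with the group mean (horizontal line) and SD (bar, n = 3), shGPER left and shControl right. The first 11 panels show falls with no overlap between the groups, which 97.4% of all tested genes also lacked. BARD1 shows 1 shGPER library at 68.10 TPM far above the other 5, and MAD1L1, ZW10, GNAI2 and NOLC1 show rises.

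Of 5 tested cytokinesis genes 4 fell, 3 by at least 2-fold, and 1 rose. The process list placed 2 of the 5, and the others were placed afterwards. Of the processes of the rule, CUL3 carries only the G1/S transition. JTB, a membrane protein of the midbody (chromosome 1, 153974269 to 153977688, minus strand, GRCh38), was at 34.88, 41.07 and 37.79 TPM in shGPER and 179.83, 169.05 and 169.34 TPM in shControl libraries (log2 fold change -2.16, SE 0.069, adjusted p = 1.1e-07). JTB shares 52.2% of its transcript words with other annotated genes, mostly AL358472.6, so its level is uncertain. CUL3, the scaffold of ubiquitin ligases that move Aurora B from chromosomes to the midzone, was at 12.82, 10.89 and 11.11 TPM in shGPER and 43.86, 45.42 and 58.11 TPM in shControl libraries (log2 fold change -1.98, SE 0.12, adjusted p = 1.12e-06). ENTR1, an endosomal protein found at the midbody, and SPECC1L, a cytoskeletal crosslinker, had log2 fold changes of -1.21 and -0.73; SPECC1L shares 49.5% of its words with the readthrough gene SPECC1L-ADORA2A. SEPTIN4, a septin with roles in sperm and apoptosis, rose, with 4.53, 4.33 and 5.64 TPM in shGPER and 1.09, 1.65 and 2.49 TPM in shControl libraries (log2 fold change 1.11, SE 0.19, adjusted p = 0.000507). Its groups did not overlap, but its shControl libraries differed by more than 2-fold.

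All 4 tested genes around the anaphase-promoting complex and related ubiquitin steps fell, 2 of them by at least 2-fold. UBE2C, the ubiquitin-conjugating enzyme that starts chains for the complex, was at 159.94, 154.86 and 153.72 TPM in shGPER and 315.12, 308.90 and 291.27 TPM in shControl libraries (log2 fold change -0.96, SE 0.051, adjusted p = 7.28e-07). FBXO5, the inhibitor EMI1 that holds the complex off through S and G2 phase, was at 7.05, 7.84 and 7.28 TPM in shGPER and 18.10, 20.60 and 20.78 TPM in shControl libraries (log2 fold change -1.31, SE 0.086, adjusted p = 1.85e-06). So an activator of the complex and an inhibitor of it were both lower. SKP2, the F-box protein that targets the CDK inhibitor p27, had 4.65, 5.80 and 5.84 TPM in shGPER and 8.70, 10.58 and 8.01 TPM in shControl libraries, the smallest fall of all these genes (log2 fold change -0.65, SE 0.13, adjusted p = 0.00115). USP39, a splicing factor related to deubiquitinases, had a log2 fold change of -1.04. Core subunits of the complex were not among the 86 genes.

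Replication and genome repair genes fell in 13 of 14 cases, 7 by at least 2-fold. RBBP8, the end-resection factor CtIP, had the largest fall of all 83 tested genes (chromosome 18, 22798261 to 23026488, plus strand, GRCh38). It stood at 6.31, 6.18 and 7.66 TPM in the shGPER libraries, against 35.39, 29.67 and 38.79 TPM in the shControl libraries, 19.4% of the control level (log2 fold change -2.20, SE 0.12, adjusted p = 7.33e-07). TLK1, the Tousled-like kinase of chromatin assembly, was at 3.80, 4.54 and 4.36 TPM in shGPER and 17.22, 17.21 and 17.52 TPM in shControl libraries (log2 fold change -1.81, SE 0.088, adjusted p = 4.45e-07).

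Factors that set off and limit replication origins fell together. GMNN, geminin, which blocks relicensing, was at 25.02, 24.13 and 24.86 TPM in shGPER and 63.27, 63.51 and 62.66 TPM in shControl libraries (log2 fold change -1.32, SE 0.053, adjusted p = 2.5e-07). DBF4, the activating subunit of the origin kinase CDC7, was at 12.33, 10.71 and 10.74 TPM in shGPER and 22.68, 22.57 and 26.09 TPM in shControl libraries (log2 fold change -1.01, SE 0.090, adjusted p = 9.11e-06); 23.8% of its words are shared with other genes, mainly its pseudogene. DONSON, a replisome factor, was at 15.6 ± 0.919 TPM in shGPER and 51.7 ± 1.22 TPM in shControl cells (SD, n = 3 each; log2 fold change -1.67, SE 0.065, adjusted p = 2.41e-07). The origin inhibitor and the origin activators were thus both lower.

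RRM2, the ribonucleotide reductase subunit that limits the supply of deoxynucleotides in S phase, was at 173.71, 204.41 and 216.68 TPM in shGPER and 335.56, 333.92 and 327.75 TPM in shControl libraries (log2 fold change -0.75, SE 0.080, adjusted p = 2.87e-05), with 22.7% of its words shared with other genes. POLE2, a subunit of DNA polymerase epsilon, was at 9.24, 6.23 and 4.92 TPM in shGPER and 13.68, 16.54 and 17.38 TPM in shControl libraries (log2 fold change -1.14, SE 0.19, adjusted p = 0.000441). POLE2 spread almost 2-fold among the knockdown libraries, without reaching the controls. SET, a histone chaperone and PP2A inhibitor, had a log2 fold change of -1.53, with 17.8% of its words shared, and RHNO1, RNF8, FAM111B, DTD1 and NFIB lay between -0.93 and -0.75. RHNO1 acts in the ATR checkpoint, RNF8 is a ubiquitin ligase of the DNA damage response, FAM111B a protease and NFIB a transcription factor of the nuclear factor I family.

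BARD1, the partner of BRCA1 in a ubiquitin ligase (chromosome 2, 214725646 to 214809711, minus strand, GRCh38), depended on 1 library. It stood at 2.88, 2.74 and 68.10 TPM in shGPER libraries 1, 2 and 3, against 6.08, 7.10 and 6.58 TPM in the shControl libraries. shGPER libraries 1 and 2 were below every control, and library 3 was about 10 times the control mean. The log2 fold change was 0.40 (SE 0.99; limma, adjusted p = 0.697), and without shGPER library 3 it was -0.99 (adjusted p = 0.00011). None of the transcript words of BARD1 is shared with another annotated gene. BRCA1, which is not among the 86 genes, had 13.17, 15.22 and 14.07 TPM in shGPER and 37.99, 36.41 and 35.76 TPM in shControl libraries, with no such value in library 3.

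All 11 tested genes of cyclins, their kinases and the G1/S transition fell, 5 by at least 2-fold. CCND1, cyclin D1, and CDK6, a kinase that D-type cyclins activate, drive passage through G1. CCND1 was at 40.28, 45.92 and 46.32 TPM in shGPER and 93.73, 94.42 and 98.38 TPM in shControl libraries (log2 fold change -1.10, SE 0.067, adjusted p = 1.33e-06). CDK6 was at 3.40, 3.32 and 3.14 TPM in shGPER and 9.81, 9.41 and 9.73 TPM in shControl libraries (log2 fold change -1.31, SE 0.087, adjusted p = 1.95e-06), and CCNE2, cyclin E2, had a log2 fold change of -1.03. CDC25C, the phosphatase that activates CDK1 at mitotic entry, was at 2.37, 1.32 and 1.85 TPM in shGPER and 7.72, 9.17 and 8.85 TPM in shControl libraries (log2 fold change -1.76, SE 0.15, adjusted p = 7.47e-06), the largest fall of this group.

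Inhibitors of the cycle in this group fell as well. CDKN3, a phosphatase that removes the activating phosphate of CDKs and peaks in dividing cells, was at 26.93, 28.01 and 25.70 TPM in shGPER and 81.60, 87.29 and 88.17 TPM in shControl libraries (log2 fold change -1.64, SE 0.061, adjusted p = 2.1e-07). CDKN2D, the CDK4 and CDK6 inhibitor p19, was at 8.59, 10.22 and 7.48 TPM in shGPER and 17.43, 18.10 and 18.04 TPM in shControl libraries (log2 fold change -0.96, SE 0.11, adjusted p = 3.75e-05). Thus both drivers and inhibitors of G1 passage were lower. The cullins CUL2 and CUL5, which build ubiquitin ligases, the CUL1-interacting protein CACUL1, the transcription factor MYBL1 and RPS6KB1, the S6 kinase of the mTOR pathway, had log2 fold changes between -0.92 and -0.72.

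Rises prevailed among the polarity and cortex genes, a group put together by annotation with the values known, so its contrast with the others is a description only. It is also rich in GC (median 59.7%), and 2 of its 5 rises were still called with the GC trend removed. Of 6 tested genes 5 rose, 2 by at least 2-fold, with a median log2 fold change of 0.99. GNAI2, a G protein alpha subunit of the Gi family that also works with spindle-orienting proteins at the cortex, was at 92.31, 105.02 and 108.63 TPM in shGPER and 44.11, 47.42 and 44.33 TPM in shControl libraries (log2 fold change 1.15, SE 0.073, adjusted p = 1.59e-06). LLGL2, a homologue of the fly polarity protein Lgl, was at 42.12, 49.37 and 52.57 TPM in shGPER and 18.70, 19.53 and 22.00 TPM in shControl libraries (log2 fold change 1.21, SE 0.098, adjusted p = 5.33e-06). Neither has a direct part in copying or separating chromosomes.

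MARK4, a kinase of microtubule-associated proteins, was at 14.01, 19.61 and 17.51 TPM in shGPER and 7.78, 7.72 and 8.52 TPM in shControl libraries (log2 fold change 0.99, SE 0.12, adjusted p = 6.23e-05). TRIOBP, an actin-bundling protein, was at 24.23, 29.12 and 30.05 TPM in shGPER and 12.28, 13.80 and 14.05 TPM in shControl libraries (log2 fold change 1.00, SE 0.098, adjusted p = 1.69e-05); 31.8% of its words are shared, mostly with Z83844.1. PARD6G, a PAR6 polarity protein, was at 1.76, 1.46 and 1.08 TPM in shGPER and 0.78, 1.13 and 0.81 TPM in shControl libraries, with overlapping groups. Its log2 fold change of 0.35 (adjusted p = 0.0386) lost its call without any 1 of 4 libraries, shGPER 1 or 2 or shControl 1 or 3 (log2 fold changes of 0.25 to 0.33), and was -0.10 after quantile normalization. EPB41, the membrane skeleton protein 4.1R, fell (log2 fold change -0.72, SE 0.094, adjusted p = 9.19e-05).

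Among genes of other functions NOLC1, a nucleolar phosphoprotein that chaperones small nucleolar RNPs, had the largest rise of the 83 genes on the log2(TPM + 1) scale (chromosome 10, 102152176 to 102163871, plus strand, GRCh38). It stood at 142.43, 157.51 and 164.42 TPM in the shGPER libraries, against 45.63, 44.77 and 48.39 TPM in the shControl libraries (log2 fold change 1.72, SE 0.068, adjusted p = 2.42e-07), and its annotation to the mitotic cell cycle placed it here. As a ratio of mean TPM its rise was 3.35-fold, and that of TUBB4A, from far lower levels, 5.97-fold. SRPK1, a kinase of splicing factors, NSUN2, an RNA cytosine methyltransferase, VCPIP1, a deubiquitinase, and PIMREG, a mitotic regulator, fell, with log2 fold changes of -1.07, -0.83, -0.79 and -0.76. Of the 10 genes that rose, MAD1L1 and ZW10 belong to the kinetochore checkpoint, and the rest were the septin, the tubulin, the 5 polarity genes and NOLC1. None of the 12 genes annotated to chromosome segregation rose. All 12 fell, beside 50.6% of all tested genes, and 10 fell by at least 2-fold, beside 24.2%. Their median log2 fold change was -1.31. With the GC trend removed 9 of the 12 were lower, with a median of -0.58.

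Direction in this table went with the GC content of the transcripts, and these genes are poor in GC. What part composition had in the result was not tested. Their median GC content was 43.7% (85 genes with a value), against 52.5% over all listed genes, and was 42.7% for the 72 genes that fell and 59.7% for the 10 that rose. Among genes outside the set with a GC content of 40 to 45%, 85.4% fell (median log2 fold change -0.93), beside 30 of 32 genes of the set (median -1.07). Below 40%, 94.3% of the other genes and all 17 of the set fell. At 55% and above, 12.6% of the other genes fell, beside 5 of 12 of the set. Those 5 were CCND1, CDKN2D, PIMREG, ENTR1 and JTB. Between 45 and 50%, 70.7% of the other genes and 17 of 18 of the set fell. Between 50 and 55%, 49.8% of the other genes and 3 of 4 of the set fell, SYCE2 with its fixed direction among the 3. The shares that fell lay close together below 45% and further apart above it, where the set has few genes. Across genes, which are not independent replicates, the rank correlation of GC content with the log2 fold change was 0.26 over the 83 genes and 0.59 over 1543 others.

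**Figure D3:**
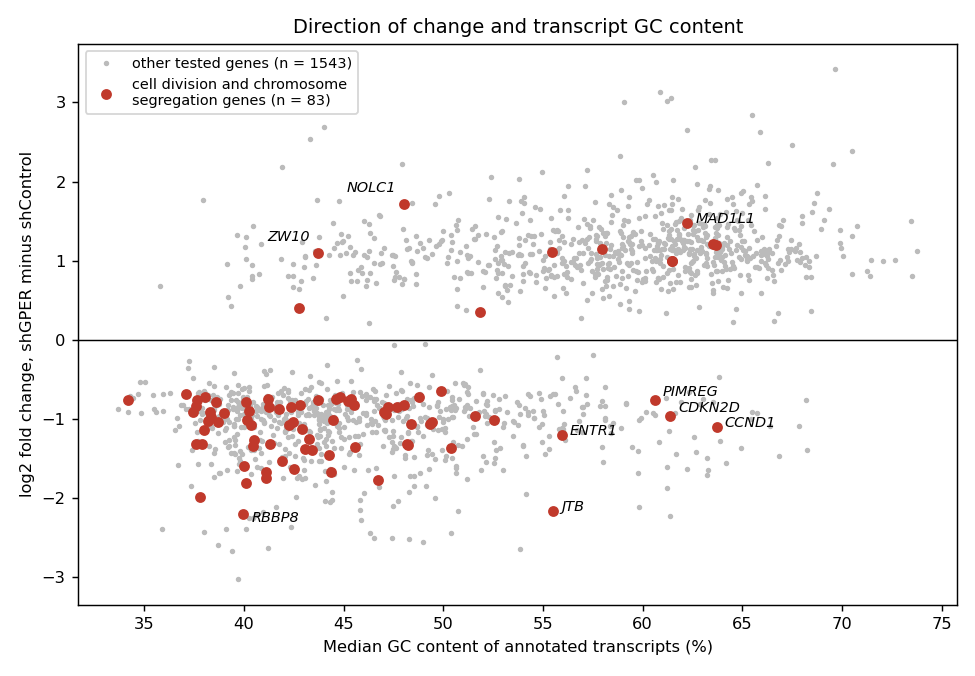
Log2 fold change (shGPER minus shControl, log2(TPM + 1) scale) against the median GC content of the annotated transcripts, for 83 cell division genes (red) and 1543 other tested genes (grey). Most red points lie at low GC content and below 0, 5 genes fell at 55% GC or more, and ZW10 and NOLC1 rose at less than 50%.

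When the trend of each library with GC content was removed, fewer genes kept their call. Of 83 genes 43 were then lower (51.8%, against 31.1% of the table), 6 were higher (7.23%, against 31.5%) and 34 were not called. The median log2 fold change was -0.24, beside 0.01 over all tested genes. The 43 include SYCE2, which passed the filter only through the controls, so its direction was fixed beforehand. The trend was estimated from a table that is itself selected, so a lost call is no evidence of a stable level. Of the kinetochore genes CENPF, NUP43, SPC25, HJURP and MIS12 stayed lower, while NDC80, KNL1 and SKA3 had log2 fold changes of 0.13, 0.16 and 0.05 and were not called, nor was AHCTF1. The checkpoint genes BUB1B and BUB3 stayed lower at -0.57 and -0.33. Of the cohesin genes PDS5A, STAG2 and SMC3 stayed lower at -0.85, -0.77 and -0.43, and the condensin genes NCAPG and SMC2 and securin, PTTG1, were not called.

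All 4 genes of the anaphase-promoting complex group stayed lower without the GC trend, UBE2C at -0.91, USP39 at -0.72 and FBXO5 at -0.39 and SKP2 at -0.38. Of the replication genes GMNN, DONSON, SET, TLK1 and RBBP8 stayed lower, at -0.42 to -1.29, as did RHNO1, RNF8 and DTD1, whereas RRM2, DBF4, POLE2, NFIB and FAM111B were not called. The GC-rich genes that fell had larger falls in this comparison, with log2 fold changes of -2.14 for CCND1, -1.90 for CDKN2D, -1.66 for PIMREG, -1.69 for ENTR1 and -2.60 for JTB. The rises of ZW10 and NOLC1 were also larger, at 1.91 and 2.20. Those of SEPTIN4, MAD1L1, GNAI2 and LLGL2 shrank to 0.69, 0.50, 0.46 and 0.18, still called, and those of MARK4, TRIOBP and TUBB4A, at 0.05, 0.05 and 0.16, were not called. PARD6G lost its call without shrinking, at 0.37 (adjusted p = 0.0633).

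**Figure D4:**
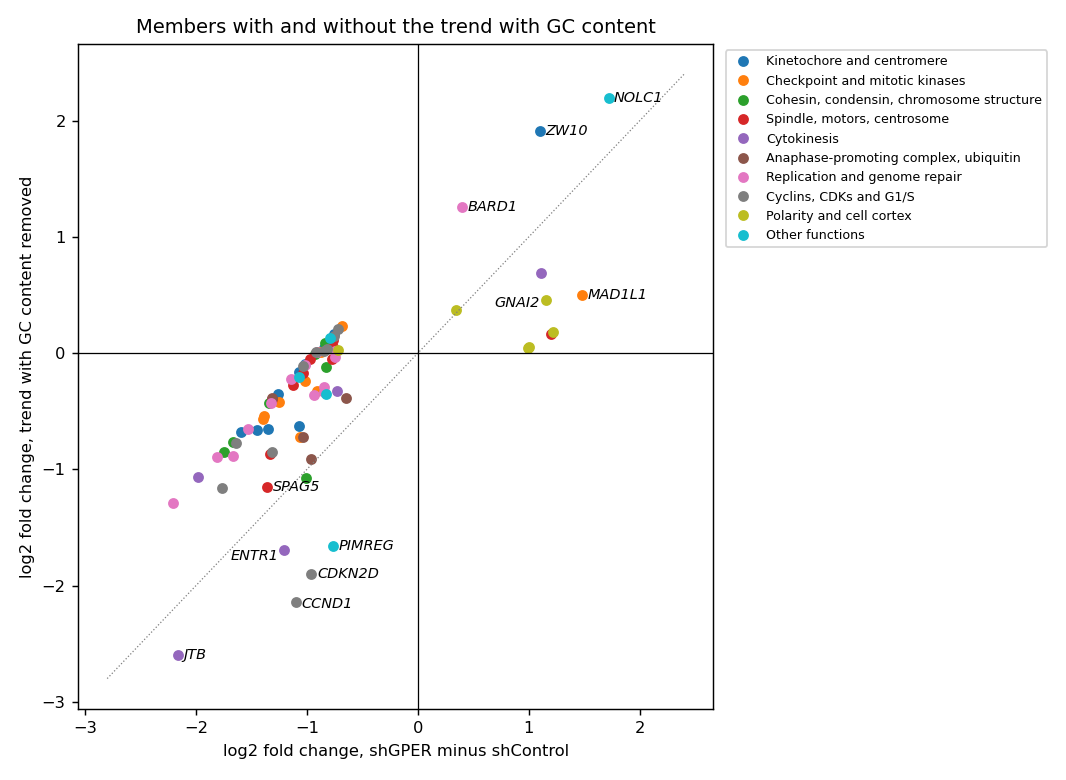
Log2 fold change (shGPER minus shControl) of the 83 tested genes after removal of the trend with GC content (vertical axis) against the value before it (horizontal axis), coloured by process; the dotted line marks equal values. Most genes that fell lie above the dotted line, nearer to 0, while CCND1, CDKN2D, PIMREG, ENTR1 and JTB lie below it and ZW10, BARD1 and NOLC1 above it.

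The promoters of these genes were searched for elements of cell cycle transcription. Windows of 300 bases from RefSeq (250 before to 50 after the gene start, GRCh38.p14) were available for 59 of the 86 genes. The CHR element, spelled TTTGAA and searched on both strands, was found in 15 of 49 genes that fell (30.6%) and in 1 of 7 that rose (ZW10), against 12.3% of 13820 protein-coding windows. The CCAAT box, the letters CCAAT on both strands, was found in 20 of the 49 (40.8%) and in 37.1% of all windows. The E2F letters TTTCCCGC, TTTCGCGC, TTTGCCGC or TTTGGCGC were found in 4 of the 49 (8.16%) and in 4.52% of all windows. A match in letters is not a bound site, and the shares carry no test.

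Below are 5 promoters in lower case, 5′ to 3′, with the matches to CHR and CCAAT letters of either strand in capitals. NDC80 and SPC25 are shown as subunits of 1 complex that fell together, BUB1B and KIF11 as the checkpoint gene and the spindle motor that fell, and ZW10 as the kinetochore gene that rose.
NDC80 (chr18:2571307-2571606, plus strand): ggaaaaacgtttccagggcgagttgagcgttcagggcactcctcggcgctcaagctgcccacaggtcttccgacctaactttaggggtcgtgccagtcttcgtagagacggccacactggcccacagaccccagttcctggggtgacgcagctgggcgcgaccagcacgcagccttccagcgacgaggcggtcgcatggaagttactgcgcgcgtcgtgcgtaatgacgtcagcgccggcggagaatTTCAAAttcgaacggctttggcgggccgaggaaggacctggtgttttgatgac
SPC25 (chr2:168890381-168890680, minus strand): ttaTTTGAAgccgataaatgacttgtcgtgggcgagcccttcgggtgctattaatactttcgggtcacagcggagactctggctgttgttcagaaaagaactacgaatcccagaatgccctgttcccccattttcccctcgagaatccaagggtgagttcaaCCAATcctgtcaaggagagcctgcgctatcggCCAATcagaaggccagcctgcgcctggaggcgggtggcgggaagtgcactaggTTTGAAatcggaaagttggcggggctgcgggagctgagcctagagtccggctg
BUB1B (chr15:40160819-40161118, plus strand): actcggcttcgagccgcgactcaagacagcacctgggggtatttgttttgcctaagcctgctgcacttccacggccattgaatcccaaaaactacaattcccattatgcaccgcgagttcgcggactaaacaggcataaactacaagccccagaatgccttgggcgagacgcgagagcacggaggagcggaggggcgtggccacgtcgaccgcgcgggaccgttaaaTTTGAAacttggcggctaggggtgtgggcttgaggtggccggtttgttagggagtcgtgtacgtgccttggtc
KIF11 (chr10:92592880-92593179, plus strand): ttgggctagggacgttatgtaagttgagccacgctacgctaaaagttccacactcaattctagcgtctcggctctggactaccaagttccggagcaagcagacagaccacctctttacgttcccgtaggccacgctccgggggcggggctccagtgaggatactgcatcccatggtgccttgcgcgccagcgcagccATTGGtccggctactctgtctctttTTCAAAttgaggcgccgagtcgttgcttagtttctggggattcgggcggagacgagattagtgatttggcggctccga
ZW10 (chr11:113773643-113773942, minus strand): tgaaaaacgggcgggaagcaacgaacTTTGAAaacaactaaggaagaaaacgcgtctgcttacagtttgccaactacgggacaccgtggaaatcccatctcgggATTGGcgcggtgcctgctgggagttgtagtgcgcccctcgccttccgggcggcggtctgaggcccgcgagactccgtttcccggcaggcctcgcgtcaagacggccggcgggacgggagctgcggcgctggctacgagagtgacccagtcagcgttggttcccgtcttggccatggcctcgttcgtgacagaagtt
Counted from the gene start, a CHR match begins at position -3 in NDC80 and SPC25, at -23 in BUB1B and at -28 in KIF11. In ZW10 it begins at position -224, and SPC25 has another match further out, at -247. Other genes that fell had matches near the start, as DBF4 and SKA3 at -3, or far from it. Those of BORA, CDKN3, SMC3 and HJURP begin at -177, -170, -151 and -111. The positions carry no test.

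Cell cycle genes that the annotation rule did not take were described from lists of known proliferation and cell cycle genes. Of 53 proliferation markers 11 were listed, HJURP and PIMREG among the 86 genes and 9 outside them. Each of the 9 fell, beside 50.6% of all tested genes, with a median log2 fold change of -1.01. Their median GC content was 42.1%, and 85.4% of genes outside the 86 with 40 to 45% GC fell. MKI67, the antigen Ki-67, stood at 26.33, 23.32 and 29.31 TPM in the shGPER libraries, against 102.41, 101.55 and 102.54 TPM in the shControl libraries (log2 fold change -1.92, SE 0.082, adjusted p = 2.91e-07). CKAP2L, a spindle protein, and STMN1, the microtubule destabiliser stathmin, had log2 fold changes of -1.75 and -1.01. Of 39 tested genes of the process lists outside the rule 30 fell and 9 rose. CDK1, the kinase of mitotic entry, was at 69.38, 67.71 and 63.91 TPM in shGPER and 122.21, 126.44 and 131.42 TPM in shControl libraries (log2 fold change -0.91, SE 0.056, adjusted p = 1.36e-06). CDC27, a core subunit of the anaphase-promoting complex, and ANLN, the actin-binding protein anillin of the cleavage furrow, had log2 fold changes of -1.05 and -1.62. Of the 9 that rose BICD2, a dynein adaptor, had the largest change among the 39 (2.04). The others were FBXL15, an F-box protein (1.49), the small GTPase RHOB (1.44), the centrosomal protein CEP131 (1.38), CDK18 (1.29), RAB11FIP4 (1.27), ZFYVE26 (1.08), CDK16 (1.02) and GPSM1 (1.02). CDK18 was at 0.76, 0.82 and 0.80 TPM in shControl libraries, so it could pass the filter only by rising. RAB11FIP4 spread widely, with 6.12, 6.60 and 16.49 TPM in shGPER and 5.43, 1.60 and 3.02 TPM in shControl libraries (SE 0.41). Without the GC trend CDC27 (-0.15) and the rises of CDK18, RAB11FIP4 and GPSM1 were not called.

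RB1, subunits of the MuvB core and genes of the quiescence and inhibitor list were split. RB1, the retinoblastoma protein that holds E2F factors, and LIN54 and LIN9, subunits of the MuvB core of which LIN54 binds CHR elements, fell, with log2 fold changes of -1.44, -0.96 and -1.09. LIN54 was at 2.47, 3.35 and 2.70 TPM in shGPER and 6.33, 6.94 and 6.02 TPM in shControl libraries. Of the 43 genes of the quiescence and inhibitor list 5 were listed, and of these CDKN2D, described above, fell. BTG2 and TOB2, antiproliferative proteins of 1 family, and DYRK1B, a kinase that stabilises quiescence, rose, with log2 fold changes of 1.27, 1.21 and 1.10, and GADD45B, a stress-induced inhibitor, fell (-1.68). The CDK inhibitors p21 and p27 were not analysed here. Without the GC trend 5 of the 9 proliferation markers stayed lower, MKI67 at -1.47, and CDK1 was at -0.0083 and not called. LIN54 (-0.049), LIN9 (-0.18) and DYRK1B (0.095) were not called either. RB1 (-0.52), BTG2 (1.33), TOB2 (0.40) and GADD45B (-2.52) kept their calls.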

How the data were processed

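One table per library was used, for 3 shGPER and 3 shControl libraries grouped by title. The authors deposited TPM for each gene, made from stranded mRNA libraries per the labels' protocols. Tools named by the submitters' processing notes are fastp, HISAT2 and RSEM, with the build hg38. Versions, use of strand and the selection of listed genes are not given in the sources used here. TPM divide by a library total, so abundant transcripts shift all others.

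Genes needed 1 TPM or more in 3 or more libraries, which 1651 met and 477 did not. Their log2(TPM + 1) values entered limma 3.58.1 (R 4.3.3), with an intensity trend, two-sided tests of shGPER minus shControl and Benjamini-Hochberg adjustment over the table. Fold changes on this scale understate those of low genes. The fit was tested on simulated data. With 3 against 3 libraries an exact permutation test cannot go below 0.1, so none is quoted.

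Members and lists were chosen with earlier results of these data known. Of the 86 members 59 were placed by process lists and 27 by their annotation afterwards, so the split by process is a description only. The lists placed 2 of 5 cytokinesis, 8 of 12 spindle and 8 of 14 replication genes. Named genes were, per process, up to 8 tested members of smallest p, those against the majority, and the 10 largest rises and falls; the other members were added to account for them, except 1 that is counted but not reported here, and members under the filter were named as untested. Genes outside the annotation rule were named by their p (up to 6 of smallest p per list) or, for CDK1, CDC27, ANLN, BRCA1, RB1, LIN9, LIN54 and the 9 process-list genes that rose, after their values were seen. GC content (median over transcripts), positions and shared 31-base words come from GENCODE 29 (GRCh38), which matched 85 of 86 members; promoters come from RefSeq, matched by symbol at the gene's outermost start. Alternatives were pseudocounts of 0.1 and 0.5, no filter, 5 TPM, median centring, quantile normalization, a replicate block, a robust prior, removal of a GC trend (natural spline, 3 degrees of freedom) and leaving out each library. Tables and figures used Python 3.11.15, pandas 2.3.3, numpy 2.4.6, scipy 1.17.1 and matplotlib 3.10.9.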

Additional observations from a re-analysis of the deposited data

How the results depend on the processing

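The counts of 72 lower and 10 higher genes were the same with pseudocounts of 0.1 and 0.5, median centring and a robust prior. Quantile normalization gave 72 and 9 and reversed PARD6G (log2 fold change -0.10), and leaving out each library gave 72 to 73 lower and 9 to 10 higher. Without shGPER library 3 BARD1 was called lower (-0.99; over the 6 libraries left out in turn -0.99 to 1.11). Median centring left 25 genes 2-fold lower in place of 39; it moved the median over all tested genes from -0.49 to -0.33. With a filter of 5 TPM 6 genes were higher, 4 of them 2-fold, and 0 each of the kinetochore, spindle and cytokinesis groups, since ZW10, TUBB4A and SEPTIN4 were no longer tested; with no filter 2 spindle genes were higher, TUBA8 being added. With the replicate block 72 genes were lower and 10 higher. Same-numbered libraries did not deviate together (correlations of 0.03, -0.09 and 0.01). The labels do not say what the replicate numbers mean, and 3 libraries per group cannot settle whether they were paired.

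Removing the GC trend moved most counts. It left 43 lower and 6 higher genes, 10 lower and 2 higher by 2-fold, with 5 kinetochore, 5 checkpoint, 4 chromosome structure, 5 spindle, 8 replication, 5 cyclin and 0 polarity genes lower, and 0 spindle and 2 polarity genes higher. It reversed 18 genes, none of them called, with log2 fold changes of 0.23 (SGO2), 0.20 (CUL5), 0.16 (KNL1), 0.15 (CACUL1), 0.13 (NDC80 and VCPIP1), 0.12 (KIF20B), 0.087 (SMC2), 0.054 (DYNC1LI1), 0.048 (SKA3), 0.036 (RPS6KB1), 0.030 (EPB41), 0.020 (MYBL1), 0.017 (NFIB), 0.011 (MASTL), 0.010 (FAM111B), 0.0089 (BORA) and 0.0068 (CUL2). The cause was not tested. The 43 lower genes, the 10 by 2-fold and the 4 of chromosome structure include SYCE2, which passed the filter only through the controls. Read depth is unknown, so counting error cannot be stated.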
